A study of Mus musculus with 22 samples.

Results

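Spleens of mice that had received pristane were compared with spleens of mice that had been irradiated, among animals without disease. The pristane group held 4 mice and the irradiated group 6, taken by the stimulus and disease letters of the sample titles, so that 10 of the 22 arrays in the series entered the comparison. The pristane group had 2 mice with cyclin D1 overexpression and Bim deleted in B cells (titled Tg_KO_nD_P) and 2 with cyclin D1 overexpression only (Tg_nD_P). The irradiated group had 3 mice of each genotype (Tg_KO_nD_I and Tg_nD_I). All 10 carried the cyclin D1 transgene, and all received sheep red blood cells (SRBC), the antigen given on its own to a further 5 mice without disease. Genotypes are those of the titles; the design text counts 1 fewer transgene-only mouse than the titles do, and which mouse this concerns is not known here. The 10 mice were compared with genotype as a covariate. The promoter of the transgene, the Cre line, the doses, the time between stimulus and sampling, and the age and sex of the animals were not given in the sources used here. Nothing says whether mice shared a litter or a cage, so p-values measure the spread between these mice only.

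Pristane is a hydrocarbon oil which, injected into the peritoneum of mice, is taken up by phagocytes and causes a lasting inflammation known for type I interferon production, recruitment of monocytes and neutrophils, and autoantibodies. Type I interferons act through the receptor Ifnar on genes that carry an interferon-stimulated response element, and Irf7, itself such a gene, drives further interferon production. Irradiation breaks DNA, activates p53 and kills lymphocytes and dividing progenitors. The mouse spleen is both a lymphoid organ and, under stress, a site of blood formation, so that its RNA holds B and T cell, granulocyte, erythroid and megakaryocyte transcripts together.

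Levels are the log2 intensities deposited for each array, in which 1 unit is a doubling of signal. Every array had the same median, 6.55, and the same maximum, 14.40, and the background lies near 6.5. After a filter on dim probes, 19805 features were tested, 1 probe for each named gene. The arrays of any pair of the 10 mice correlated between 0.905 and 0.991, and no pair was so close as to be 1 library under 2 names (the smallest SD of a difference between 2 arrays was 0.190). Ccnd1, the transgene's gene, averaged 10.06 ± 0.70 in pristane mice and 10.22 ± 0.40 in irradiated mice (SD, n = 4 and 6, log2), with an exact two-sided permutation p of 0.65. Bcl2l11, which encodes Bim, averaged 7.95 ± 0.19 in pristane mice and 7.97 ± 0.32 in irradiated mice (exact permutation p = 0.89). The smallest p these 100 arrangements within genotype allow is 0.01. The spleen is a mixture, and a deletion in B cells alone need not be visible in it.

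The pristane mouse Tg_nD_P_1 stood apart from the other 3 in several gene lists. Over all features it was not the most distant array. Its median correlation with the other 9 was 0.961, against 0.954 for both Tg_KO_nD_P_1 and Tg_nD_P_2. Tg_nD_P_1 had the lowest level of the 10 mice for 11 of 11 erythroid genes and 9 of 10 megakaryocyte and platelet genes. It was also lowest for 8 of 10 secondary granule genes and 17 of 21 DNA replication genes. Of all 19805 features 2399 were lowest in it, against 3083 in Tg_KO_nD_P_1 and 3237 in Tg_nD_P_2. The erythroid anion exchanger Slc4a1 had 6.53 in Tg_nD_P_1, which is at background. It had 14.17, 14.09 and 14.15 in the other pristane mice, 12.82 to 13.96 in irradiated mice and 9.18 to 13.44 with SRBC alone. The mean level of the erythroid list, relative to irradiated mice, was -2.92 in Tg_nD_P_1 and -2.23 to -0.21 with SRBC alone. Of the 11 erythroid genes 10 lay between 6.46 and 6.70 on the array of Tg_nD_P_1, which is labelled spleen. Tfrc, the transferrin receptor that dividing cells of other types also carry, was 8.52 on it. The globin Hba-a1 was 9.65, above background but under all other mice of both groups (14.30 to 14.40). Most of its B cell genes were at the level of irradiated mice. Tg_nD_P_1 was also lowest in 5 of 11 red pulp macrophage genes and highest in 8 of 11 T cell genes. That this array is spleen rests on its label and was not tested. In bulk spleen, fewer cells of a type and less RNA per cell cannot be told apart. Leaving Tg_nD_P_1 out was chosen after the values were seen, and the counts and medians of the gene lists below are given with and without it. Low erythroid, megakaryocyte, granule and replication genes are what set this mouse apart. Rises in those genes without it, and their p-values, therefore follow in part from that choice and are no further evidence.

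The sex-linked genes also divided the groups. The Y-linked gene Eif2s3y was near background in all 4 pristane mice (6.58, 6.47, 6.49 and 6.45) and in 2 of the 6 irradiated mice (6.49 in Tg_nD_I_1 and 6.40 in Tg_nD_I_3), and was 7.96 to 8.33 in the other 4. Xist, the RNA of the inactive X chromosome, ran the opposite way, with 7.82 to 8.51 in pristane mice and 6.45 to 8.97 in irradiated mice. In exact permutation tests within genotype p was 0.06 for Xist and 0.05 for Eif2s3y. All 3 Bim-deleted irradiated mice had high Eif2s3y, so that in Bim-deleted mice the sex-linked genes and the stimulus cannot be told apart. Their part in the results below was not tested beyond the values given beside them.

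In the 10 mice, 2 features passed the limma test at an adjusted p of 0.05, both higher with pristane, which is 0.0101% of the 19805 tested. Both are interferon genes, Irf7 and Oas1g. No feature was lower past that threshold, while 2613 features (13.2%) had an unadjusted p under 0.05. In 232 features (1.17%) every pristane mouse was above, and in 201 (1.01%) below, every irradiated mouse. The median difference over all features was 0.00. Without Tg_nD_P_1, 2280 features passed (11.5%), of which 1355 were higher (6.84%) and 925 lower (4.67%) with pristane, and 5057 (25.5%) had an unadjusted p under 0.05. In these 9 mice 277 passed with Xist as a covariate. Both irradiated mice with low Eif2s3y were transgene-only. Among the 3 pristane and 2 irradiated mice with low Eif2s3y, the genotype covariate therefore left only Tg_nD_P_2 to compare with those 2. That difference was 1.78 for Irf7 and 2.53 for Oas1g, and no count is given for a fit that rests on 1 pristane mouse. All other counts of calls below are to be read against the shares given above.

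The promoters of 4 interferon genes are shown because the first 2 belong to the genes that passed the test and the others to well known interferon-induced genes whose values follow. Each is 250 bases before to 50 bases after the gene's start, 5′ to 3′ on the gene's strand, from RefSeq on GRCm38.p6. Capitals mark every match, on either strand, to the core of the interferon-stimulated response element, searched as 2 copies of GAAA with any 2 bases between them (2 copies of TTTC on the opposite strand). Irf7 lies at chr7:141266375-141266674 on the minus strand, Oas1g at chr5:120887564-120887863 on the minus strand, Isg15 at chr4:156200769-156201068 on the minus strand and Ifit3 at chr19:34583279-34583578 on the plus strand.
Irf7: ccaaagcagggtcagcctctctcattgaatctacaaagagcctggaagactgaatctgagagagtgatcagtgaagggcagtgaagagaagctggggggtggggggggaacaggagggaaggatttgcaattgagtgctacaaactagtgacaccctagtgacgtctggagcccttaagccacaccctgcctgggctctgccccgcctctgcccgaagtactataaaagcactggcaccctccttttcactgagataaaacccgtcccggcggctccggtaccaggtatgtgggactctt
Oas1g: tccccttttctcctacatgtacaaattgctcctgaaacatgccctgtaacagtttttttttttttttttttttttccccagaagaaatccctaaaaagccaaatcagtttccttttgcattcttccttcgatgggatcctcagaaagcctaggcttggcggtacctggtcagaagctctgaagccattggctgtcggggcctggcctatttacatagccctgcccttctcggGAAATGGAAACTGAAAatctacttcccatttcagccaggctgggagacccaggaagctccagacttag
Isg15: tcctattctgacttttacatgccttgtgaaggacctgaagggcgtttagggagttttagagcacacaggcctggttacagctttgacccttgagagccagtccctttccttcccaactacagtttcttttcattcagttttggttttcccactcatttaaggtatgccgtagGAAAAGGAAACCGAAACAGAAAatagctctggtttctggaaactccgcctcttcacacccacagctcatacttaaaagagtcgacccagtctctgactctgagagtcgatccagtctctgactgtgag
Ifit3: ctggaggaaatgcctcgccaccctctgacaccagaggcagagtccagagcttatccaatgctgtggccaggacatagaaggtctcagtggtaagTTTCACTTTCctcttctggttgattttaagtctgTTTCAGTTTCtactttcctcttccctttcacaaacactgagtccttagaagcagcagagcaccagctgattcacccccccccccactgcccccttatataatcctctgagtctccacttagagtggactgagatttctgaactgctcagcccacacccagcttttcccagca

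Oas1g held 2 overlapping matches that began 18 bases before the start, Isg15 held 3 overlapping matches that began 78 bases before it, and Ifit3 held 2 separate matches on the opposite strand. The Irf7 window held none, which says only that these letters are not in this window. Of all 32851 promoters in the table, 3.44% held a match. Of the 16 measured genes of the type I interferon list, 11 had a promoter in the table and 7 of these held a match. Usp18, Oas2, Mx1, Mx2 and Rtp4 had no entry.

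Irf7, the interferon regulatory factor that amplifies type I interferon production, was higher in every pristane mouse than in any irradiated mouse. Here and below, the pristane values stand in the order Tg_KO_nD_P_1, Tg_KO_nD_P_2, Tg_nD_P_1 and Tg_nD_P_2. Irf7 had 8.84, 8.59, 8.42 and 9.06 in pristane mice, against a range of 7.16 to 7.51 with a median of 7.30 in irradiated mice. The groups did not overlap, and both genotypes held high mice. The difference was 1.41 ± 0.12 on the log2 scale (SE), 2.66 times the irradiated level, with an adjusted p of 0.0385 from limma. It was 1.53 ± 0.11 without Tg_nD_P_1.

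Oas1g, one of the oligoadenylate synthetases that sense double-stranded RNA, had 10.09, 10.31, 9.78 and 10.77 in pristane mice, against 8.18 to 8.58 (median 8.33) in irradiated mice. All 4 pristane mice lay above all 6 irradiated mice. The difference was 1.90 ± 0.18 (SE), 3.73 times the irradiated level (adjusted p = 0.0385, limma), and 2.07 ± 0.15 without Tg_nD_P_1. A second Oas1g probe differed by 1.22 ± 0.21, and 3 others lay at background. Near-identical Oas1 copies may share signal at such probes.

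The stimulus-by-genotype term was smaller than its standard error for both genes. In Bim-deleted mice alone Irf7 differed by 1.39 and Oas1g by 1.82, and in transgene-only mice by 1.43 and 1.97. The interaction was -0.04 ± 0.26 for Irf7 and -0.15 ± 0.38 for Oas1g (SE). The 2 irradiated mice with low Eif2s3y, which match the pristane mice in that gene, had Irf7 at 7.27 and 7.30, within the range of the other irradiated mice. The calls themselves depended on which mice were included. Both genes still passed in limma without Tg_nD_P_1 (adjusted p = 0.00202 for both). They also passed without Tg_nD_P_2 (adjusted p = 0.0203 for Irf7 and 0.0194 for Oas1g). Leaving out any of the 6 irradiated mice or either of the Bim-deleted pristane mice took the adjusted p of both genes to between 0.0766 and 0.206, while the differences stayed between 1.37 and 1.46 for Irf7 and between 1.86 and 1.96 for Oas1g. With Xist as a covariate the differences were 1.45 for Irf7 and 1.91 for Oas1g, with an adjusted p of 0.346 for both.

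**Figure D1:**
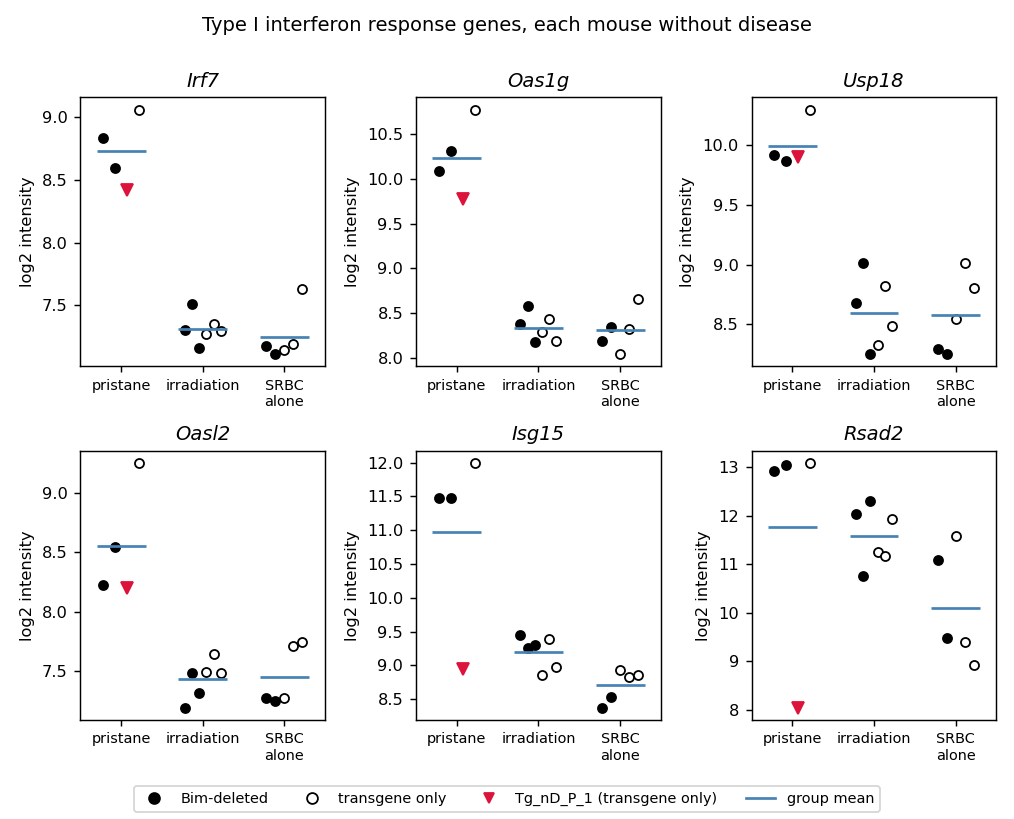
Log2 intensity (vertical axis, a separate scale for each gene) of 6 interferon-induced genes in each mouse without disease, by stimulus. Filled circles are Bim-deleted mice, open circles transgene-only mice, the triangle is Tg_nD_P_1 and the bar is the group mean. The 4 pristane mice lie above all irradiated mice for Irf7, Oas1g, Usp18 and Oasl2, and Tg_nD_P_1 lies low for Isg15 (8.94) and Rsad2 (8.04).

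The type I interferon list had 20 genes, of which 16 were measured. Of these, 1 rose (Irf7) and none fell, with 15 of 16 differences above 0 and a median of 0.43. In 9 of the 16 every pristane mouse was above every irradiated mouse, where 232 of all features (1.17%) were. Without Tg_nD_P_1, 12 of the 16 rose and the median was 0.59.

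Among the enzymes and regulators of that response, Usp18, a protease that removes Isg15 and restrains the interferon receptor, had 9.92, 9.86, 9.90 and 10.30 in pristane mice, against 8.26 to 9.01 (median 8.58) in irradiated mice. The groups did not overlap, and the adjusted p of 0.104 missed the threshold (difference 1.40 ± 0.17, SE). Oasl2, a synthetase-like protein, had 8.22, 8.55, 8.20 and 9.25 in pristane mice, against 7.19 to 7.64 (median 7.48) in irradiated mice (adjusted p = 0.137). Oasl1, which in mice limits translation of Irf7, had 7.83, 7.70, 7.81 and 8.03 in pristane mice, against 6.98 to 7.42 in irradiated mice (difference 0.67 ± 0.09, adjusted p = 0.127). All 3 passed without Tg_nD_P_1, with adjusted p-values of 0.00636, 0.0045 and 0.0101 from limma.

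The next genes were named after their values were seen, as were genes named only to spell out a count of 5 or fewer. Oas2, another oligoadenylate synthetase, had 8.04, 8.62, 7.85 and 8.99 in pristane mice, against 6.87 to 7.34 in irradiated mice, and Ifit3, a translation inhibitor, 9.41, 10.07, 9.27 and 10.04 in pristane mice, against 8.40 to 9.08 in irradiated mice. Neither overlapped between the groups (adjusted p = 0.137 and 0.21). Mx2, Rtp4 and Oas1a were also separated, by differences of 0.21, 0.40 and 0.28.

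Isg15 and Rsad2 behaved otherwise. Isg15, a ubiquitin-like modifier, had 11.48, 11.48, 8.94 and 11.99 in pristane mice, against 8.85 to 9.44 (median 9.28) in irradiated mice. Tg_nD_P_1 lay inside the irradiated range while the other 3 lay above it. The difference was 1.77 ± 0.51 in the 10 mice (adjusted p = 0.287) and 2.44 ± 0.18 without Tg_nD_P_1 (adjusted p = 0.00202, limma). Rsad2, the antiviral protein viperin, had 12.92, 13.04, 8.04 and 13.08 in pristane mice, against 10.76 to 12.31 (median 11.59) in irradiated mice. Tg_nD_P_1 had the lowest level of all 10 mice, and the other 3 pristane mice the highest. The difference was 0.19 ± 0.93 in the 10 mice and 1.41 ± 0.35 without Tg_nD_P_1 (adjusted p = 0.0409).

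The 5 mice given SRBC alone lay at the irradiated level for the leading interferon genes. Irf7 was 7.11 to 7.63 with SRBC alone, Oas1g 8.05 to 8.66 and Usp18 8.25 to 9.01, ranges that cover or touch those of the irradiated mice. The 1 pristane mouse with disease (Bim-deleted) had 7.69 for Irf7, 9.09 for Oas1g and 8.82 for Usp18, each under the lowest of the 4 pristane mice without disease. The 3 irradiated mice with disease spanned 7.15 to 7.93 for Irf7 and 8.16 to 9.28 for Oas1g. These are descriptions without a test. Here and below, the mice given SRBC alone differ from the pristane mice in the sex-linked genes as well as in the stimulus.

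The 10 further genes higher with pristane that followed Irf7 and Oas1g in p-value did not pass the threshold in the 10 mice. Beside Usp18 and Oasl1 they were Gpr84, 1700123O20Rik, Ifi27, Lhfpl2, Ptgir, 4930455G09Rik, Mgmt and Saa3, and all 10 had groups that did not overlap. Of all features, 1.17% were separated in this direction. The 10 were chosen by p in the same mice, so their separation follows largely from that choice and is no further evidence. Saa3, an acute phase serum amyloid made by macrophages, had 8.53, 10.29, 8.93 and 8.46 in pristane mice, against 6.55 to 7.65 (median 6.65) in irradiated mice. That was the largest difference of the 12 leading genes, 2.24 ± 0.34 (SE) or 4.72 times the irradiated level. Its adjusted p was 0.128 (limma). With SRBC alone Saa3 ranged from 6.57 to 8.69, so that 1 mouse given no pristane also reached the pristane level.

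Ifi27, an interferon-induced mitochondrial protein, had 12.18, 12.02, 11.57 and 11.98 in pristane mice, against 10.91 to 11.26 in irradiated mice (difference 0.83 ± 0.11, adjusted p = 0.104). Gpr84, a receptor for medium-chain fatty acids on activated myeloid cells, had 7.33, 7.37, 7.03 and 7.09 in pristane mice, against 6.58 to 6.78 in irradiated mice. Both groups were dim for Gpr84. Ptgir, the prostacyclin receptor, differed by 0.35 ± 0.05, Lhfpl2 by 0.53 ± 0.07 and Mgmt, which removes alkyl groups from guanine in DNA, by 0.49 ± 0.07. Mgmt was 7.86 to 8.42 with SRBC alone, at the level of the pristane mice (8.36, 8.26, 7.95 and 8.30) rather than of the irradiated mice (7.62 to 7.82). For this gene the irradiated mice were the ones that lay apart.

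The 12 leading genes lower with pristane were Igf2, Sema5a, Cxcl12, Limch1, Siglecg, Kctd10, Tmem204, Gna11, Ramp3, Arap2, F2r and Hs3st3b1. None passed the threshold in the 10 mice, all had groups that did not overlap, and all passed without Tg_nD_P_1. Of all features, 1.01% were separated in this direction and 4.67% were lower past the threshold without that mouse. These 12 were chosen by p in the same mice, so their separation follows largely from that choice and is no further evidence. Cxcl12, the chemokine of stromal niches that holds progenitors and plasma cells, had 10.42, 10.49, 10.26 and 10.12 in pristane mice, against 10.93 to 11.65 (median 11.33) in irradiated mice. Its mean was 10.32 ± 0.17 in pristane mice and 11.32 ± 0.26 in irradiated mice (SD, adjusted p = 0.111 from limma), and 1 of its other 4 probes differed by -0.68 and another by -0.66, while 2 lay at background. With SRBC alone Cxcl12 ranged from 10.39 to 11.26, across both groups.

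Sema5a, a semaphorin that guides cell migration, had 6.75, 6.68, 6.79 and 7.26 in pristane mice, against 7.58 to 8.63 (median 8.14) in irradiated mice, a difference of -1.20 ± 0.15 (adjusted p = 0.104). With SRBC alone it ranged from 6.90 to 8.14, across both groups. Igf2, a growth factor, averaged 7.19 ± 0.21 (SD) in pristane mice with a highest value of 7.39, against 7.91 to 8.39 in irradiated mice and 7.81 to 8.85 with SRBC alone. F2r, the thrombin receptor, differed by -0.90 ± 0.15, Tmem204, an endothelial membrane protein, by -0.89 ± 0.14, and Ramp3, a partner of the adrenomedullin receptor, by -0.23 ± 0.04. Siglecg, an inhibitory receptor of B cells, had 7.58, 7.69, 8.18 and 7.47 in pristane mice, against 8.65 to 9.38 in irradiated mice and 8.75 to 9.33 with SRBC alone. Its difference was -1.22 ± 0.18 (adjusted p = 0.127). Tg_nD_P_1, too, lay below every irradiated mouse.

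Pan-B cell and follicular B cell genes were lower with pristane in the direction of the fitted difference in all 11 and all 6 measured members, with medians of -0.86 and -0.66, and no member passed in the 10 mice. Without Tg_nD_P_1, 9 of the 11 pan-B genes and 4 of the 6 follicular genes fell, with medians of -1.21 and -0.90. Cd22, an inhibitory co-receptor of the B cell receptor, had 8.10, 9.21, 10.08 and 7.82 in pristane mice, against 10.02 to 10.25 (median 10.21) in irradiated mice. Tg_nD_P_1 was within the irradiated range and the other 3 were below it. The difference was -1.37 ± 0.40 (adjusted p = 0.293) in the 10 mice and -1.84 ± 0.25 (adjusted p = 0.00695) without Tg_nD_P_1.

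Cxcr5, the receptor that brings B cells into follicles, had 8.32, 9.54, 10.11 and 8.14 in pristane mice, against 10.14 to 10.87 in irradiated mice, so that the groups only just did not overlap. Fcer2a, the low-affinity IgE receptor of follicular B cells, had 7.70, 8.78, 9.88 and 7.38 in pristane mice, against 8.97 to 11.31 in irradiated mice. Its difference without Tg_nD_P_1 was -2.19 ± 0.50 (adjusted p = 0.0307). Ms4a1 (CD20), Blk, a Src-family kinase, and Cd37, a tetraspanin, differed by -0.89, -1.46 and -1.51 without Tg_nD_P_1. The mean log2 level of the pan-B genes, relative to the mean of the irradiated mice, was -1.46 to 0.02 with pristane and -0.07 to 0.13 with SRBC alone.

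Genes of antigen presentation that B cells express followed the same mice. In the MHC class II and interferon gamma list no gene passed with 10 mice (median -0.56 over 15), and 5 of 15 fell without Tg_nD_P_1 (median -0.83), namely Ciita, H2-Ab1, H2-Eb1, H2-DMa and Cd74. H2-Ab1, a class II chain, had 11.14, 11.62, 12.82 and 10.72 in pristane mice, against 12.20 to 13.07 in irradiated mice. The interferon gamma targets Gbp2, Cxcl9 and Cxcl10 did not pass in either fit. H2-Aa took 2 levels in irradiated mice, 6.81 and 6.97 in 2 of them and 10.46 to 10.66 in the other 4. Pristane mice had 9.34, 6.63, 10.50 and 8.61, of which 9.34 and 8.61 lay between those levels. The mean of H2-Aa over a group is therefore not interpreted. Plasma cell genes showed no member past the threshold in either fit (12 measured, medians 0.12 and 0.03), and T cell genes none either (11 measured, medians -0.39 and -0.87). For T cells Tg_nD_P_1 was the highest of the 10 mice in 8 of 11 genes.

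**Figure D2:**
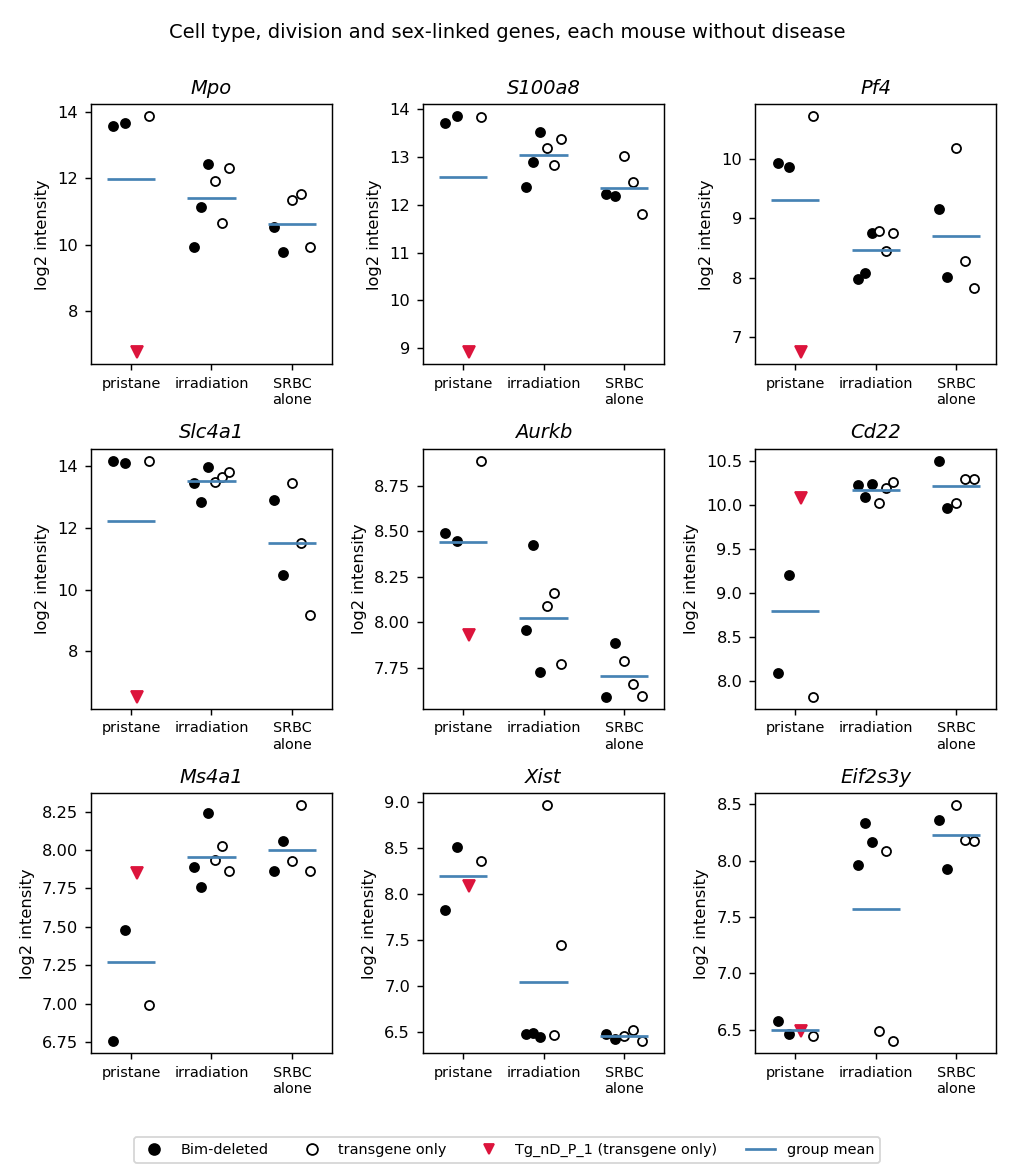
Log2 intensity (vertical axis, a separate scale for each gene) of granulocyte (Mpo, S100a8), platelet (Pf4), erythroid (Slc4a1), division (Aurkb), B cell (Cd22, Ms4a1) and sex-linked (Xist, Eif2s3y) genes in each mouse without disease, by stimulus, with symbols for genotype, for Tg_nD_P_1 and for the group mean. Tg_nD_P_1 lies far below the other pristane mice for Mpo (6.77), S100a8 (8.91), Pf4 (6.74) and Slc4a1 (6.53), and inside the irradiated range for Cd22 (10.08).

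Granule genes of maturing neutrophils were high in 3 of the 4 pristane mice. Of 6 measured primary granule genes none passed in the 10 mice (median 0.95), and 5 rose without Tg_nD_P_1 (median 2.22). Prtn3, the serine protease proteinase 3, had 11.40, 12.26, 6.54 and 12.58 in pristane mice, against 8.46 to 10.43 (median 9.49) in irradiated mice. The 3 high mice were all above the irradiated range and Tg_nD_P_1 was at background. The difference was 1.23 ± 1.12 (adjusted p = 0.663) in the 10 mice and 2.67 ± 0.52 without Tg_nD_P_1 (adjusted p = 0.019, limma), 6.35 times the irradiated level. Mpo, myeloperoxidase, named after its values were seen, had 13.57, 13.66, 6.77 and 13.86 in pristane mice, against 9.92 to 12.42 in irradiated mice and 9.78 to 11.52 with SRBC alone. Serpinb1a, an inhibitor of these proteases, was the 1 member that differed downwards (-0.21).

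Of 10 secondary and tertiary granule genes, none passed with 10 mice (median 0.64) and 7 rose without Tg_nD_P_1 (median 1.74). Ltb4r1, the leukotriene B4 receptor, had 9.41, 9.61, 6.70 and 9.71 in pristane mice, against 7.35 to 8.47 in irradiated mice (1.77 ± 0.26 without Tg_nD_P_1, adjusted p = 0.00777). Mmp9, gelatinase B, and Fcnb, a ficolin, differed by 1.77 and 1.25 without that mouse. Of 11 mature neutrophil genes, 6 rose without Tg_nD_P_1 (median 0.78, against 0.39 and none past the threshold with all 10). The calgranulin S100a8, named after its values were seen, had 13.71, 13.86, 8.91 and 13.83 in pristane mice, against 12.38 to 13.54 in irradiated mice. Clec4d, a C-type lectin that senses mycobacterial glycolipid, was an exception that kept its level in that mouse, with 7.63, 8.20, 7.82 and 7.80 in pristane mice, against 6.96 to 7.34 in irradiated mice. Orm1, an acute phase glycoprotein, was another, with 7.28, 7.47, 7.20 and 7.86 in pristane mice, against 6.65 to 7.04 in irradiated mice. Neither passed in the 10 mice (adjusted p = 0.143 and 0.243).

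Monocyte genes had a median of 0.38 over 14 members, none past the threshold, and without Tg_nD_P_1 the median was 0.41 and 4 rose (F13a1, Ms4a6d, Fcgr1 and Fcgr4). Ms4a6d, a membrane protein of monocytes and macrophages, had 9.74, 9.12, 9.67 and 11.03 in pristane mice, against 7.41 to 8.81 in irradiated mice (difference 1.66 ± 0.40, adjusted p = 0.268). Fcgr4, an activating Fc receptor, named after its values were seen, had 12.31, 12.03, 8.95 and 13.92 in pristane mice, against 9.75 to 10.92 in irradiated mice. The acute phase list had a median of 0.33, and of 0.23 without Tg_nD_P_1, and 3 of its 12 genes had groups that did not overlap (Saa3, Orm1 and Lrg1), where 1.17% of all features did. Lrg1, a secreted glycoprotein of the acute phase, had 10.78, 10.81, 9.83 and 10.96 in pristane mice, against 9.01 to 9.75 in irradiated mice (difference 1.32 ± 0.24, adjusted p = 0.163). Of the 12, 5 rose without Tg_nD_P_1, and of these Lcn2 and Hp are also carried in neutrophil granules. The NF-kB and inflammatory cytokine list had a median of -0.01 over 17 genes and none past the threshold in the 10 mice. Without Tg_nD_P_1 the median was near 0, the cytokine Osm rose by 0.61, and Nfkbia, an inhibitor of NF-kB, and Relb, one of its subunits, fell by 0.84 and 0.64 (limma, log2).

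All 10 measured megakaryocyte genes differed upwards with pristane, with a median of 0.74 and none past the threshold in the 10 mice. Without Tg_nD_P_1, 9 of the 10 rose and the median was 1.70. Itga2b, the integrin chain that binds fibrinogen on platelets, had 9.65, 10.02, 7.23 and 10.51 in pristane mice, against 7.50 to 8.79 (median 8.20) in irradiated mice. The 3 high mice were above the irradiated range and Tg_nD_P_1 below it. The difference without Tg_nD_P_1 was 1.97 ± 0.32 (adjusted p = 0.0111), and in the 10 mice 1.17 ± 0.63 (adjusted p = 0.456). Pf4, platelet factor 4, named after its values were seen, had 9.93, 9.86, 6.74 and 10.72 in pristane mice, against 7.99 to 8.79 in irradiated mice, and spanned 7.83 to 10.19 with SRBC alone.

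Erythroid genes had a median of 0.21 over 11 members in the 10 mice and 1.05 without Tg_nD_P_1, when 6 rose. Gata1, the factor of erythroid and megakaryocyte development, had 8.02, 7.99, 6.50 and 8.22 in pristane mice, against 6.82 to 7.34 in irradiated mice. Its difference was 0.54 ± 0.31 in the 10 mice and 0.96 ± 0.10 without Tg_nD_P_1 (adjusted p = 0.0043). Klf1, the erythroid Krüppel-like factor, named after its values were seen, had 10.84, 10.44, 6.58 and 11.28 in pristane mice, against 9.13 to 9.82 in irradiated mice. With SRBC alone Klf1 was 6.82 to 9.46, so that irradiated mice too were at or above the upper part of that range. Alas2, the first enzyme of haem synthesis in red cells, had 13.33, 13.30, 6.54 and 13.15 in pristane mice. It had 11.81 to 13.02 in irradiated mice and 10.08 to 12.72 with SRBC alone. Neither Alas2 nor Slc4a1 passed in either fit. Hba-a1 was at or near the maximum of the arrays in the other 9 mice, where differences cannot be measured. Of 5 globin genes none passed in either fit, with medians of -0.91 and, without Tg_nD_P_1, near 0.

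Genes of cell division followed the same 3 mice. Of 14 mitosis genes 9 rose without Tg_nD_P_1 (median 0.77) and of 21 replication genes 14 rose (median 0.65), against none of either with all 10 mice (medians 0.42 and 0.36). Rrm1, a ribonucleotide reductase subunit, had 10.07, 10.27, 8.81 and 10.40 in pristane mice, against 9.08 to 9.45 in irradiated mice (0.99 ± 0.10 without Tg_nD_P_1, adjusted p = 0.00388). Bub1b, a spindle checkpoint kinase, had 9.20, 9.09, 8.25 and 9.32 in pristane mice, against 7.97 to 8.81 in irradiated mice. Cdc45 and Rfc4, of the replication fork, differed by 0.81 and 0.71 without that mouse. The mean levels of erythroid, megakaryocyte and granule genes moved in the same mice, and their part in these differences was not tested. Of 8 progenitor genes none passed in the 10 mice (median 0.06), and 4 rose without Tg_nD_P_1 (Gata2, Mecom, Gfi1b and Cebpe, list median 0.13), while Kit, Cd34 and Myb did not pass.

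Genes that p53 activates after DNA damage differed little between the groups in the median. Of 16 measured, none passed in the 10 mice (median 0.04) and 1 rose without Tg_nD_P_1 (Gadd45a, median 0.02). Cdkn1a, the cell cycle inhibitor p21, named after its values were seen, had 8.05, 7.28, 7.84 and 7.64 in pristane mice, against 7.21 to 7.80 (median 7.48) in irradiated mice, a difference of 0.25 ± 0.16. Mdm2, the ubiquitin ligase of p53, likewise named, averaged 9.93 ± 0.16 (SD) in pristane mice, against 9.57 to 10.01 in irradiated mice. The groups overlapped for both. Of 15 measured DNA repair genes none passed in the 10 mice (median 0.05). Without Tg_nD_P_1, 5 of the 15 rose and 2 fell (median 0.04). The time since irradiation is not known here.

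**Figure D3:**
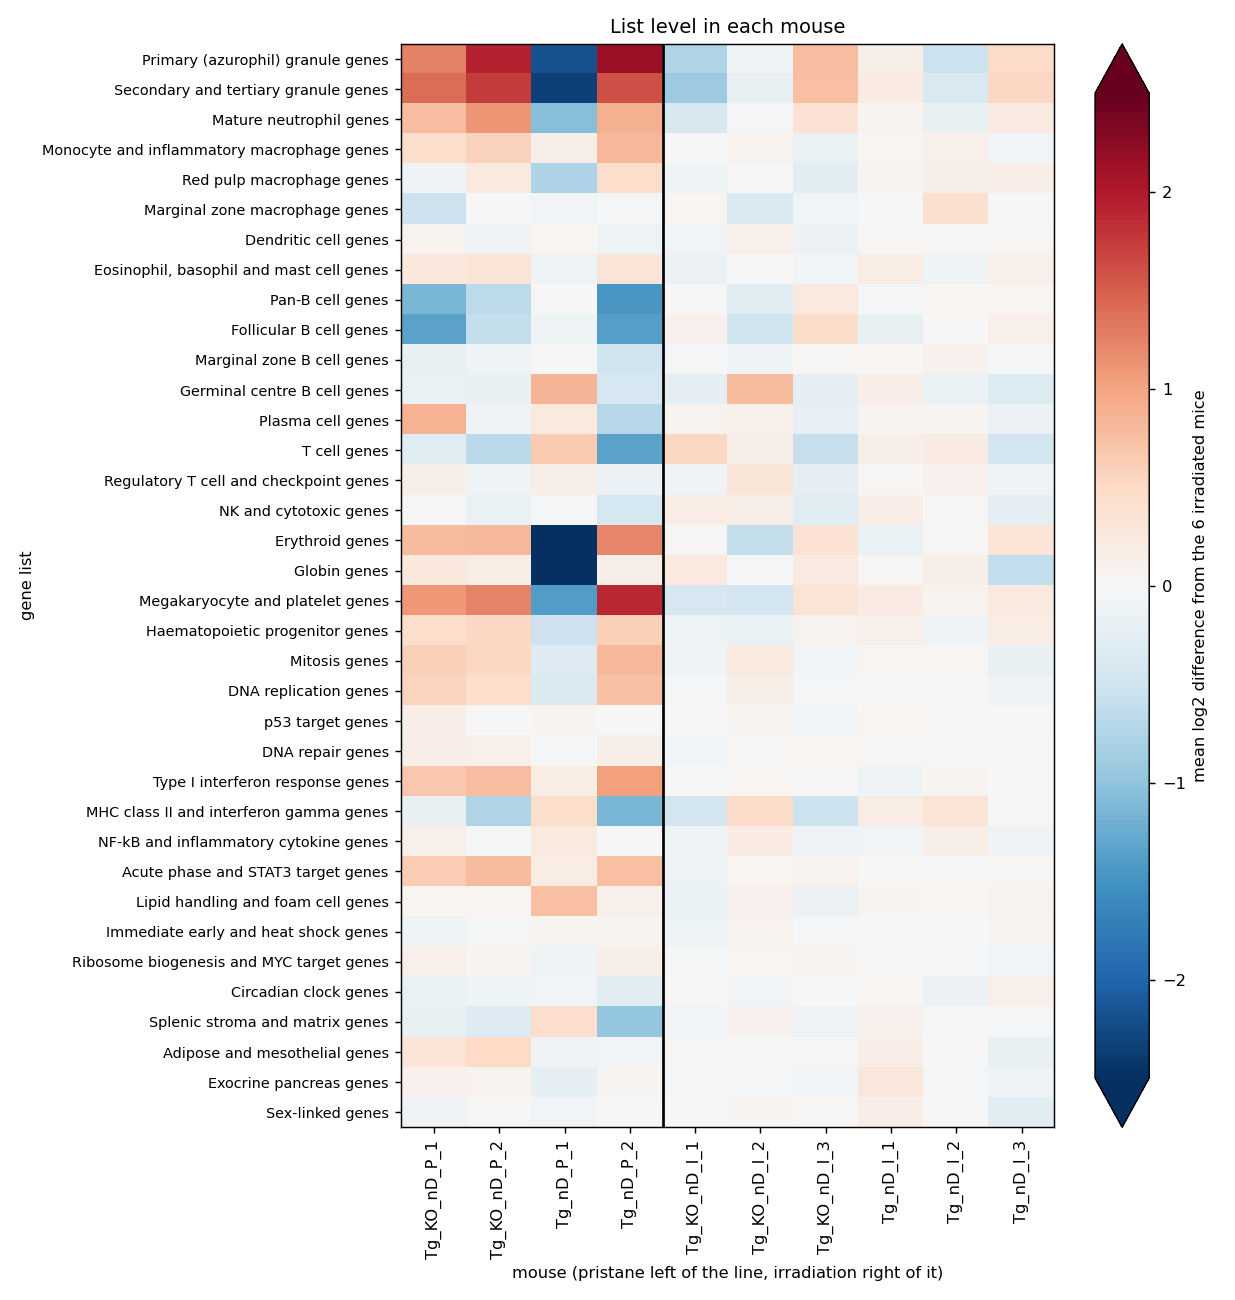
Level of each of 36 gene lists (rows) in each of the 10 mice (columns, pristane left of the line). Colour is the mean log2 difference of the list's measured genes from the mean of the 6 irradiated mice, clipped at 2.5. The type I interferon row is above 0 in all 4 pristane mice (0.18 to 1.02, against -0.11 to 0.06 in irradiated mice), while the granule, erythroid and megakaryocyte rows are high in 3 and low in Tg_nD_P_1.

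Of the cell types not yet described, 9 eosinophil, basophil and mast cell genes had medians of 0.18 and, without Tg_nD_P_1, 0.24, when 3 rose. Marginal zone B cell genes (9 measured) had medians of -0.04 and -0.09, and 2 fell without that mouse. Marginal zone macrophage genes (6 measured) had medians of -0.20 and -0.15, and 1 fell without it. None of these passed in the 10 mice. Red pulp macrophage genes had a median of -0.07 over 11 members, with 4 of 11 higher, and without Tg_nD_P_1 the median had the opposite sign, 0.32, with 8 of 11 higher. None passed the threshold in either fit, and Tg_nD_P_1 was lowest in 5. Vcam1, an adhesion molecule of these cells, had 11.23, 12.24, 11.34 and 11.71 in pristane mice, against 11.74 to 12.36 in irradiated mice, and the complement genes C1qa and C1qb differed by 0.36 and 0.56. Dendritic cell, NK cell and regulatory T cell lists had medians between -0.08 and -0.01 with no member past the threshold, and between -0.08 and 0.01 without Tg_nD_P_1, when Sirpa, an inhibitory receptor of myeloid cells, rose by 0.38 and Ccr7, the homing receptor for lymphoid zones, fell by 0.55 in the dendritic cell list. The germinal centre list had a median of 0.04 over 6 genes, and of -0.35 without Tg_nD_P_1, which was the highest of the 10 mice in 3 of the 6. No germinal centre gene passed in either fit. The splenic stroma and matrix list had a median of -0.19 over 15 genes, 5 higher and 10 lower, with none past the threshold in the 10 mice. Without Tg_nD_P_1, which was the highest of the 10 mice in 6 of the 15, the median was -0.28 and 2 fell. In this list Acta2, smooth muscle actin, had 10.10, 9.89, 9.28 and 8.87 in pristane mice, against 10.30 to 11.28 in irradiated mice. The groups did not overlap, and the difference of -1.31 ± 0.24 did not pass in the 10 mice (adjusted p = 0.177). Lipid handling genes, which mark macrophages loaded with fat or oil, had a median of 0.25 over 9 members with none past the threshold, and Tg_nD_P_1 was the highest of the 10 mice in 6 of the 9. Without it the median was 0.16, and Trem2, a lipid-sensing receptor of macrophages, and Pparg, a lipid-activated nuclear receptor, rose by 0.33 and 0.97. Exocrine pancreas genes, which would mark tissue attached to the spleen, had a median of -0.01 in both fits, and Cela1, an elastase, rose by 0.86 without Tg_nD_P_1.

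The adipose and mesothelial list, whose cells also lie on the surface of the spleen, had a median of 0.10 over 6 genes, and of 0.13 without Tg_nD_P_1, when Msln rose. The median hid a split between mice. The mean level of the list was 0.32 and 0.49 in the Bim-deleted and -0.08 and -0.07 in the transgene-only pristane mice, against -0.18 to 0.16 in irradiated mice and -0.07 to 0.56 with SRBC alone. Upk3b, a uroplakin of mesothelium, had 8.41, 8.88, 6.66 and 7.21 in pristane mice, against 6.64 to 7.53 in irradiated mice and 6.94 to 9.02 with SRBC alone. Krt19, a keratin, had 6.82, 7.17, 6.42 and 6.43 in pristane mice, against 6.48 to 6.58 in irradiated mice. Both were named after their values were seen.

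**Figure D4:**
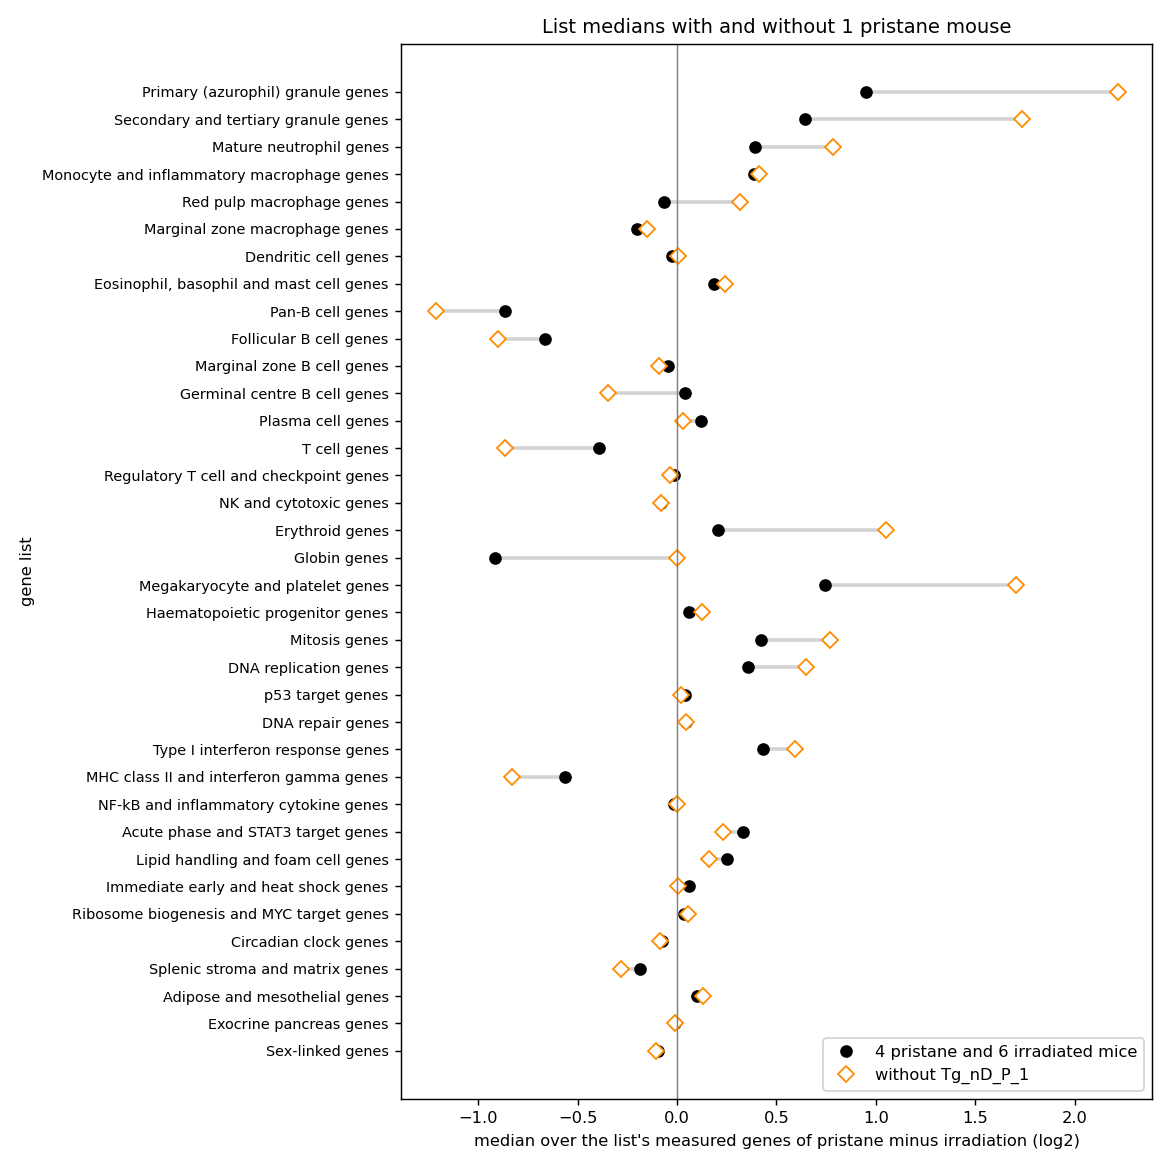
Median over each list's measured genes of the difference pristane minus irradiation (log2, horizontal axis), with all 10 mice (filled circles) and without Tg_nD_P_1 (open diamonds). The interferon median was 0.43 and 0.59, the primary granule median 0.95 and 2.22, and the pan-B median -0.86 and -1.21.

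The difference between stimuli was also compared between genotypes. No feature passed in the interaction (0% of 19805), and 978 (4.94%) had an unadjusted p under 0.05. The 3 named genes of smallest p were Msln, St13 and Anxa8, each with an adjusted p of 0.391 from limma. Msln, mesothelin, had 7.34 and 7.29 in the Bim-deleted pristane mice and 6.51 and 6.66 in the transgene-only pristane mice, against 6.54 to 6.68 in all irradiated mice. Anxa8, an annexin, had 6.96 and 6.90, then 6.54 and 6.53, against 6.46 to 6.53 in irradiated mice. Both genes were thus higher in the 2 Bim-deleted pristane mice than in the other 8, at low levels, and Upk3b and Krt19 were high in the same 2 mice. With SRBC alone Msln ranged from 6.61 to 7.22, and the part of mesothelial tissue in these differences was not tested. St13, a co-chaperone, had 7.17 and 7.10 in the Bim-deleted and 7.38 and 7.41 in the transgene-only pristane mice, against 7.28 to 7.33 in Bim-deleted and 7.11 to 7.18 in transgene-only irradiated mice. Without Tg_nD_P_2 the interaction count was 497, without Tg_KO_nD_P_2 it was 33 and without Tg_nD_P_1 it was 5, each leaving a pristane group of 1 mouse that is assumed to vary like the others.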

How the data were processed

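Spleen RNA was hybridised to a 1-colour Illumina bead array, and the authors deposited 1 normalized log2 intensity for each of 45281 probes and 22 mice. No source here states the base of the logarithm, the software or the background correction; base 2 was taken from the range of the values, and all arrays share 1 distribution. A non-normalized table was not used, because its 44 columns match no mouse by name. No genome build is given for the probes.

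Probes above the 40th percentile of their array in at least 4 of the 10 arrays were kept (28925), with the brightest probe for each named gene, leaving 19805 features, 14140 of them named through the array's annotation. Stimulus and genotype were fitted with limma 3.58.1 (lmFit, then eBayes, under R 4.3.3), with Benjamini-Hochberg adjustment over all features and a threshold of 0.05, and was tested on simulated data. Single genes outside that fit used exact permutation within genotype. The number of arrays limits the precision, and no detection calls were available for these values.

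Named genes were the 12 of smallest p in each direction, those past the threshold first, the 3 of smallest p in the interaction, up to 4 of smallest p in each of 36 gene lists, and Ccnd1, Bcl2l11 and the sex-linked genes. Members, lists and comparisons were chosen with earlier results of these data known, so no list was tested as a set. Of 455 list genes 423 are on the array. Promoters came from RefSeq (GRCm38.p6). Whether title numbers pair the mice is not known. Of 13 same-numbered pairs, 3 had correlated deviations above 0.1 (range -0.26 to 0.41). Deviations were taken from group means, and those of the pristane mice of a genotype then mirror each other exactly. Their correlations are therefore partly forced, and the check cannot decide whether the numbers pair mice.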

Additional observations from a re-analysis of the deposited data

Results flagged for a closer look

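For 100 genes named in the text, the lowest and the highest mouse of the 4 pristane and of the 6 irradiated mice were compared with the rest of their group by Dixon's ratio at the 95% level. Of 200 groups, 21 held a mouse beyond the limit, and in 12 of the 21 that mouse was Tg_nD_P_1. Chance flags about 1 in 20 groups of genes taken without regard to their values. Many of these genes were named with their values known, some because Tg_nD_P_1 differed in them, so the count is a description and is not to be set against that share.

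Tg_nD_P_1 was far below the other pristane mice in genes of 4 kinds. These were granulocyte genes (Mpo 6.77, Ltb4r1 6.70 and S100a8 8.91), erythroid genes (Slc4a1 6.53, Alas2 6.54, Gata1 6.50 and Hba-a1 9.65), the interferon-induced genes Isg15 (8.94) and Rsad2 (8.04), and Lrg1 (9.83) and Tmem204 (7.74). It was far above them for Lhfpl2 (8.17).

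In Tg_nD_P_2, Usp18 was far above (10.30), and Limch1 (7.05) and Mdm2 (9.70) far below the other pristane mice. Among irradiated mice, Tg_KO_nD_I_1 stood apart for Saa3 (7.65, high) and Mdm2 (9.57, low), Tg_KO_nD_I_2 for Il1r2 (7.71) and Oas1a (6.54), both high, and Tg_nD_I_3 for Gna11 (7.85, high) and Hba-a1 (14.34, under an array maximum shared by the other 5).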

How the results depend on the processing

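The count of 2 features past the threshold was the least stable value. It was 0 with no filter on dim probes, 10 with a trend and robust variances, 10 with array weights, 60 with all 15 mice without disease, 95 with all 22 mice and 9 group means, 0 with Xist as a covariate, 0 among the 6 mice with low Eif2s3y, 1 in Bim-deleted mice only and 0 in transgene-only mice only. With the title number as a replicate block it was 0, although whether the numbers pair mice is not known. Leaving out each mouse in turn gave 0 to 2280. Without Tg_nD_P_1 and with a second change it was 277 (Xist as a covariate), 214 (low Eif2s3y only) or 1514 (title number as a replicate block), choices made after seeing the data. The interaction count was 0 to 497 over the mice left out in turn and 0 under every other setting run for it. The cause of these changes was not tested. Of 100 genes, 89 kept their sign under every setting. Those that changed sign, all uncalled with 10 mice, were S100a8 with array weights (0.20); Rsad2 (-0.37), Mpo (-0.75), Klf1 (-0.12) and Mdm2 (-0.035) with Xist as a covariate; S100a8 (0.84), Slc4a1 (0.72) and Alas2 (0.78) in Bim-deleted mice; Rsad2 (-0.89), Mpo (-1.31), Mmp9 (-0.019), Klf1 (-0.60) and Mdm2 (-0.12) in transgene-only mice; and Rsad2 (-1.03), Mpo (-1.80), Prtn3 (-0.40), Mmp9 (-0.30), Pf4 (-0.037), Klf1 (-0.63) and Mdm2 (-0.15) in mice with low Eif2s3y. Without Tg_nD_P_1, S100a8, Slc4a1 and Alas2 were 0.62, 0.71 and 0.72 with Xist as a covariate, and 0.98, 0.86 and 1.02 with the replicate block. Also without Tg_nD_P_1, but in mice with low Eif2s3y, they were 0.54, 0.50 and 0.57, with only Tg_nD_P_2 left to compare. Mdm2 was -0.093 with Xist as a covariate and -0.31 in that comparison of 1 pristane mouse. Over the mice left out in turn, Alas2 ran from -1.78 to 0.76, Klf1 from -0.41 to 1.40, Mdm2 from -0.022 to 0.14, Mpo from -0.36 to 2.37, Rhag from -0.21 to 0.79, Rsad2 from -0.53 to 1.41, S100a8 from -1.11 to 0.78 and Slc4a1 from -2.29 to 0.64. Genes near 6.5 lie at the array background, where differences are compressed.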
